A study of Mus musculus with 6 samples.

Results

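The 9 genes described here encode the contractile and calcium-handling isoforms that mark slow (type I) muscle fibres. They are the 3 subunits of slow troponin (*Tnnc1*, *Tnni1*, *Tnnt1*), the light chains *Myl2* and *Myl3* of slow myosin, the slow tropomyosin *Tpm3*, the calcium pump *Atp2a2*, the calsequestrin *Casq2* and the Z-disc protein *Myoz2*. They were chosen by name, as isoforms of slow fibres, from 22027 genes in the RNA-seq table of gastrocnemius (GAS) muscle, and all 9 were in the table. WT and mKD mice were compared, with 3 libraries of each genotype, 1 library a mouse. The mKD mice carried *Tet3* fl/fl and the transgene HSA-Cre79, in which the promoter of human skeletal muscle actin drives the Cre recombinase in muscle fibres, so that other cell types of the tissue keep *Tet3*. The WT mice were *Tet3* floxed littermates, so the floxed allele was present in both genotypes. All mice were female, were fed regular chow and were 14 weeks old, and RNA was selected for poly(A) and made into strand-specific libraries. The sample labels also state a time of 48 h for each library, which the study's methods do not explain for the mice.

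As background, skeletal muscle fibres contract when calcium released from the sarcoplasmic reticulum binds troponin on the thin filament and tropomyosin moves to let myosin bind actin. Slow fibres build this machinery from isoforms that the heart largely shares, whereas fast fibres use other genes for each part. GAS of the mouse is a mixed muscle of mainly fast fibres, and its slow fibres lie mostly in a deep region. The study's methods do not state whether RNA came from whole GAS or from a part of it. Whether the sampled region differed between libraries was not tested.

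Promoter windows of 300 bases, 250 before to 50 after a start site, were taken from RefSeq (GRCm38.p6) for 8 of the 9 genes, which gave 11 windows. The 4 windows below are shown because they belong to the pair of troponin genes whose counts ranged most widely between libraries and to the 2 genes whose counts ranged least. Capitals mark the E-box (CANNTG, the motif of MyoD-family factors), the MCAT motif (CATTCC or GGAATG, bound by TEAD factors) and the MEF2 consensus, searched on both strands with no overlap between motifs in these windows.
Tnnc1, chromosome 14, 31208062 to 31208361, plus strand: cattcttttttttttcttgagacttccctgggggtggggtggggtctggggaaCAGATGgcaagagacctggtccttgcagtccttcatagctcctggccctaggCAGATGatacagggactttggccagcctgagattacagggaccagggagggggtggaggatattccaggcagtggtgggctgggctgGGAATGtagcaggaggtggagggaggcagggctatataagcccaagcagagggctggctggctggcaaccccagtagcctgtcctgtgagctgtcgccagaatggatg
Tnnt1, chromosome 7, 4515926 to 4516225, minus strand: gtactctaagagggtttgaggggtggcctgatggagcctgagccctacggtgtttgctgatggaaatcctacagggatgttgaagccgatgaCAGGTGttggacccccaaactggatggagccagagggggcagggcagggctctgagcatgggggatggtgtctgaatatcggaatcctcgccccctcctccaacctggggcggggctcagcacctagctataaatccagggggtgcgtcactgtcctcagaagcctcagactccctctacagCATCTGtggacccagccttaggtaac
Casq2, chromosome 3, 102086165 to 102086464, plus strand: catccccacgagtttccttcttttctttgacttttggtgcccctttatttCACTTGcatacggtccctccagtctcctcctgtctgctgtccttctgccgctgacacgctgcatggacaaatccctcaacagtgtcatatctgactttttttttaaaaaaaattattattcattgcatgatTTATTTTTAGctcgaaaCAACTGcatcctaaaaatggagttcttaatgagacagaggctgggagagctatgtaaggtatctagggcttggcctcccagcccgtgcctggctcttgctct
Myoz2, chromosome 3, 123034938 to 123035237, minus strand: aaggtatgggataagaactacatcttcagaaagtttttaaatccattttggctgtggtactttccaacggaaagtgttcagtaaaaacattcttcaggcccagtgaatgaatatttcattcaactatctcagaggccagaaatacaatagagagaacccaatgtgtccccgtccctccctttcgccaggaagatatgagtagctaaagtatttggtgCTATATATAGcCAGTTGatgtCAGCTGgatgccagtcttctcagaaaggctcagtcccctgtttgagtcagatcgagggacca

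An E-box was found in all 11 windows, and in 72.3% of the 32851 mouse promoter windows of the same length. The MCAT motif was found at *Tnnc1*, 58 bases before the start site, and 2 times at *Myl3*, against 14.7% of all windows. The MEF2 consensus was found at *Casq2* and *Myoz2* alone among the 11 windows, 69 and 33 bases before the start site, against 3.19% of all windows. A TATAAA motif was found at *Tnnt1*, 30 bases before the start site, and in 1 of the windows of *Myl2*, against 13.6% of all windows. Both RefSeq windows of *Myl2* lie before the start of the gene as GENCODE M21 annotates it. A CArG box, the motif of serum response factor, was found at *Myl3*, against 1.63% of all windows. These are matches of letters in a window, and binding was not measured.

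The libraries held 16219227 to 32148270 reads, recovered from the normalised counts, and 12322 genes passed the filter on low counts. *Tet3* had normalised counts of 594, 536 and 708 in WT libraries 1 to 3 and of 425, 318 and 472 in mKD libraries 1 to 3, with no overlap between genotypes. The log2 difference of *Tet3* between mKD and WT was -0.60, with a limma standard error of 0.18 and a limma adjusted p of 0.18. Markers of other cell types differed between libraries too. The summed normalised count of 14 Schwann cell and nerve markers was 1733 to 1882 in WT. For mKD libraries 1 to 3 the sums were 29347, 1254 and 10373, with none of the 14 at 0 in every library. Of 10 adipocyte markers, *Adipoq*, *Plin1*, *Cidec*, *Lep*, *Retn* and *Pck1* were at 0 in WT library 3, and *Adipoq* had normalised counts of 247, 148 and 0 in WT and of 718, 155 and 495 in mKD. The sum of the 10, most of it *Plin4* and *Fabp4*, was 12261 to 18425 in WT and 17724 to 26831 in mKD, and their median log2 fold change was 3.19. The sum of 10 endothelial markers was 14333 to 16694 in WT and 8539 to 10870 in mKD. Their part in the results below was not tested.

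All 9 slow-fibre genes were high in the same 2 libraries, WT library 3 and mKD library 2, 1 of each genotype. In 8 of the 9, WT library 2 was the lowest of the 6. The highest library exceeded the lowest by 2.85-fold (*Casq2*) to 61.4-fold (*Tnnc1*), with a median of 21.3-fold, whereas the median over all genes tested was 1.66-fold. A range of at least 10-fold was found for 7 of the 9 genes and for 4.21% of all genes tested, and a range of at least 2.5-fold for 9 of 9 and for 21.7% of all genes. These ranges ran across genotypes, and for none of the 9 genes did the WT libraries lie apart from the mKD libraries (24.8% of all genes tested did).

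**Figure D1:**
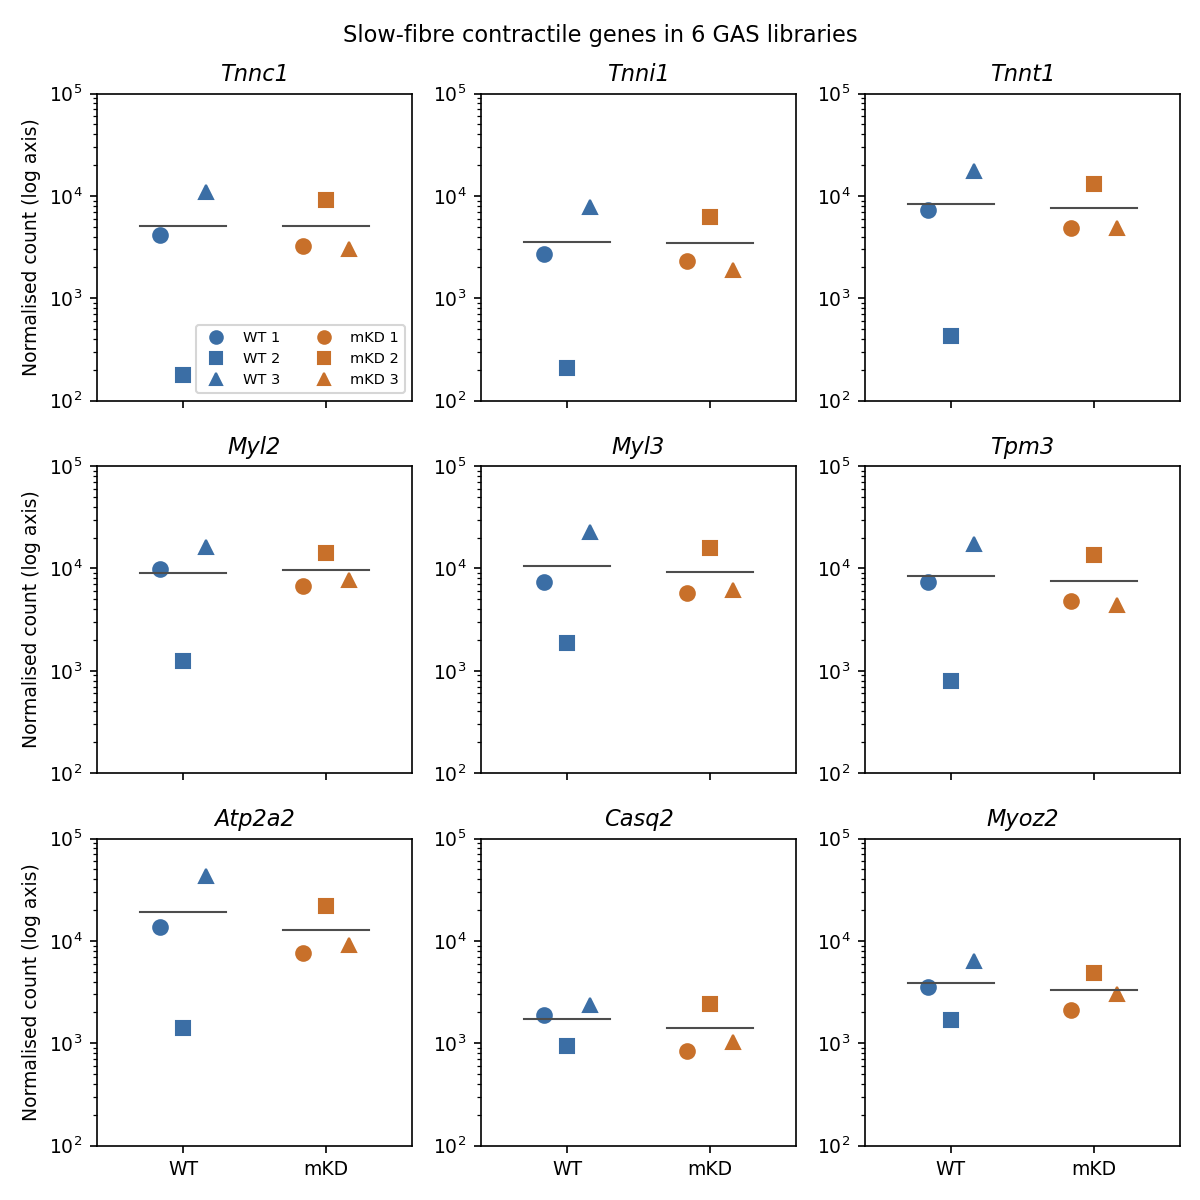
Normalised counts of the 9 slow-fibre genes in each library, on a log axis, with WT libraries in blue and mKD libraries in orange. Symbols give the replicate number and lines the arithmetic mean of 3 libraries. WT library 2 lies lowest for 8 of 9 genes, with *Tnnc1* at 179, and WT library 3 and mKD library 2 lie highest for all 9.

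The troponin genes had the widest ranges. *Tnnc1* encodes troponin C of slow fibres and heart, the subunit that binds calcium, and is annotated at chromosome 14, 31208312 to 31211729 (GRCm38, as for the other genes). WT libraries 1 to 3 had *Tnnc1* normalised counts of 4161, 179 and 10961, and mKD libraries 1 to 3 had 3243, 9060 and 3007. The WT values therefore spanned 61.4-fold and the mKD values 3.01-fold, inside the WT range. WT library 2 held 178 *Tnnc1* reads (95% exact Poisson interval 153 to 206), so the depth gave this low value a counting error far smaller than its distance from the other libraries. The gene *Nisch* overlaps *Tnnc1* on the other strand and reached 1606, and the sources used here do not state whether strand was used in counting, so reads of this pair may not be told apart.

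*Tnni1*, the inhibitory subunit of slow skeletal troponin (chromosome 1, 135779434 to 135810989), had normalised counts of 2702, 208 and 7803 in WT and 2317, 6244 and 1903 in mKD. *Tnnt1*, the subunit that binds tropomyosin (chromosome 7, 4504570 to 4516382), had 7297, 431 and 17346 in WT and 4897, 13064 and 4856 in mKD. Both followed *Tnnc1* library for library, with the same order of the 6 libraries. The highest library exceeded the lowest by 37.6-fold for *Tnni1* and by 40.2-fold for *Tnnt1*.

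The myosin light chains and the tropomyosin had the same high and low libraries with narrower ranges. *Myl2*, the regulatory light chain of slow and ventricular myosin (chromosome 5, 122100951 to 122113472), had normalised counts of 9803, 1246 and 16067 in WT and 6764, 14289 and 7623 in mKD. *Myl3*, the essential light chain of the same myosin (chromosome 9, 110741861 to 110769798), had 7340, 1872 and 22444 in WT and 5727, 15843 and 6113 in mKD. Their ranges were 12.9-fold and 12.0-fold, and in both the mKD libraries lay within the span of the WT libraries. *Tpm3*, the tropomyosin of slow fibres, which also has forms outside muscle (chromosome 3, 90072649 to 90100902), had 7329, 803 and 17125 in WT and 4847, 13558 and 4413 in mKD. Its range was 21.3-fold, and its near copy *Tpm3-rs7* reached no more than 20.5 in any library.

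The genes of calcium handling and of the Z-disc differed most among themselves. *Atp2a2*, the calcium pump of the sarcoplasmic reticulum in slow fibres and heart (chromosome 5, 122453513 to 122502225), had normalised counts of 13598, 1419 and 43021 in WT and 7572, 21962 and 9194 in mKD. Its value in WT library 3 was 1.96 times that in mKD library 2, whereas for the other 8 genes this ratio was 0.992 to 1.42. *Casq2*, which stores calcium in the sarcoplasmic reticulum of heart and slow fibres (chromosome 3, 102086415 to 102146514), had 1894, 941 and 2388 in WT and 844, 2408 and 1020 in mKD. It was the 1 gene whose lowest library was mKD library 1 and whose highest was mKD library 2. *Myoz2*, which encodes a calsarcin that binds calcineurin at the Z-disc (chromosome 3, 123006206 to 123035015), had 3548, 1695 and 6380 in WT and 2102, 4849 and 3021 in mKD. *Casq2* and *Myoz2*, with ranges of 2.85-fold and 3.76-fold, varied least of the 9 genes.

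Per kilobase of the longest annotated transcript, the median normalised count over the 6 libraries was highest for *Myl2* (9801), followed by *Myl3* (5979), *Tnnt1* (5757) and *Tnnc1* (5134). Those of *Tpm3* (2564), *Atp2a2* (2008), *Myoz2* (1362) and *Tnni1* (1166) were lower, and that of *Casq2* (570) was the lowest. The longest transcript far exceeded the median annotated one for *Tpm3* (2374 against 583.5 bases) and *Tnni1* (2153 against 749), but not for *Tnnc1* (721 against 660). This order, and the shares per kilobase below, therefore depend on the length chosen. Each gene's range over libraries was wider than the step to its neighbour in this order. The genes share the 6 libraries and vary together, so that range does not show whether neighbours differ within a library. *Tnnc1*, for example, was above *Tpm3* in every library but WT library 2 (248 against 338 per kilobase). Differences between neighbours were not tested.

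The make-up of the 9 transcripts was compared as shares of their summed normalised count per kilobase. For *Myl2*, the largest share in 4 libraries, WT library 2 (25.6%) lay within the span of the other 5 libraries (19.7% to 29.8%). For the other 8 genes WT library 2 lay outside that span. *Tnnc1* made up 14.5% to 17.8% of the sum in 5 libraries and 4.52% in WT library 2, and *Tnnt1* 15.9% to 17.9% and 7.44%. *Myoz2* made up 2.85% to 4.35% in 5 libraries and 12.8% in WT library 2, and *Casq2* 1.02% to 1.89% and 6.72%. The share of *Myl3* was 16.7% to 21.8% in 5 libraries and 30.4% in WT library 2. The library with the fewest slow-fibre transcripts therefore held them in other proportions, with less troponin and more *Myl3*, *Myoz2* and *Casq2*, than any of the other 5. These shares come from 1 library and have no replicate check.

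**Figure D2:**
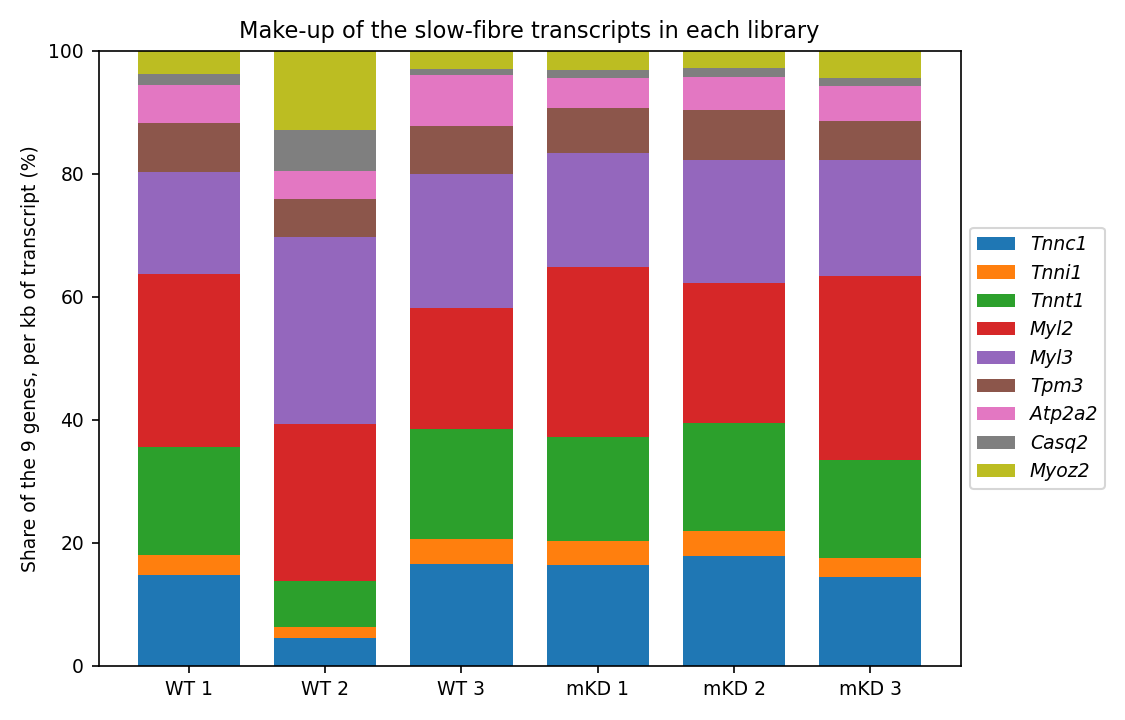
Share of each gene in the summed normalised count per kilobase of the 9 slow-fibre genes, in percent, for each library. WT library 2 stands apart for 8 of the 9 genes, with 4.52% *Tnnc1* and 12.8% *Myoz2* against 14.5% to 17.8% and 2.85% to 4.35% in the other 5 libraries.

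The comparison of genotypes asked whether deletion of *Tet3* in muscle fibres came with a change of the slow isoforms. On the log2(value + 1) scale, the median log2 fold change of the 9 genes, mKD minus WT, was 0.51, beside 0.0096 over all genes tested. None of the 9 passed a 1.2-fold change at p under 0.05 in limma (17.8% of all genes tested did, 8.31% higher and 9.51% lower in mKD). None passed an adjusted p of 0.05 in limma (0.0162% of all genes did), and the count at an unadjusted p under 0.05 was 0 in limma, in DESeq2 and in edgeR. The values were positive for 7 genes, from 0.28 for *Myl3* (standard error 0.82) to 1.14 for *Tnnc1* (standard error 1.34), and negative for *Casq2* (-0.35, standard error 0.45) and *Myoz2* (-0.11, standard error 0.48). Adjusted p-values from limma were 0.68 to 0.93. The standard errors, 0.45 to 1.34, stood beside a median of 0.19 over all genes tested, and the 95% interval for *Tnnc1* ran from -1.95 to 4.24, so that a change of several-fold in *Tnnc1* in either direction was not detectable with these libraries.

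Except for *Casq2*, the direction of these differences rested on single libraries. The log2 fold change of *Casq2* stayed negative whichever single library was left out (-0.80 to -0.048). Without WT library 2, all 9 log2 fold changes were negative, from -1.07 (*Atp2a2*) to -0.47 (*Myl2*), with a median of -0.64 and a smallest unadjusted p of 0.12 in limma. Without WT library 3 the median was 1.39, and without mKD library 2 it was -0.0091. Without mKD libraries 1 and 3, the libraries with high Schwann cell and nerve markers, all 9 values were positive with a median of 1.30, and 1 mKD library then stood against 3. Arithmetic means also told otherwise than log2 means. The mean of *Atp2a2* was 19346 ± 21388 in WT and 12909 ± 7882 in mKD (SD, n = 3 mice), that of *Tnnc1* was 5100 ± 5452 and 5103 ± 3428, and for 7 of the 9 genes the arithmetic mean was lower in mKD, with ratios over all 9 genes of 0.667 to 1.06. DESeq2 and edgeR on the recovered reads gave negative values for 7 of 9 genes with medians of -0.15 and -0.14. In a bulk sample, fewer slow fibres and less slow-fibre RNA per fibre cannot be told apart.

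**Figure D3:**
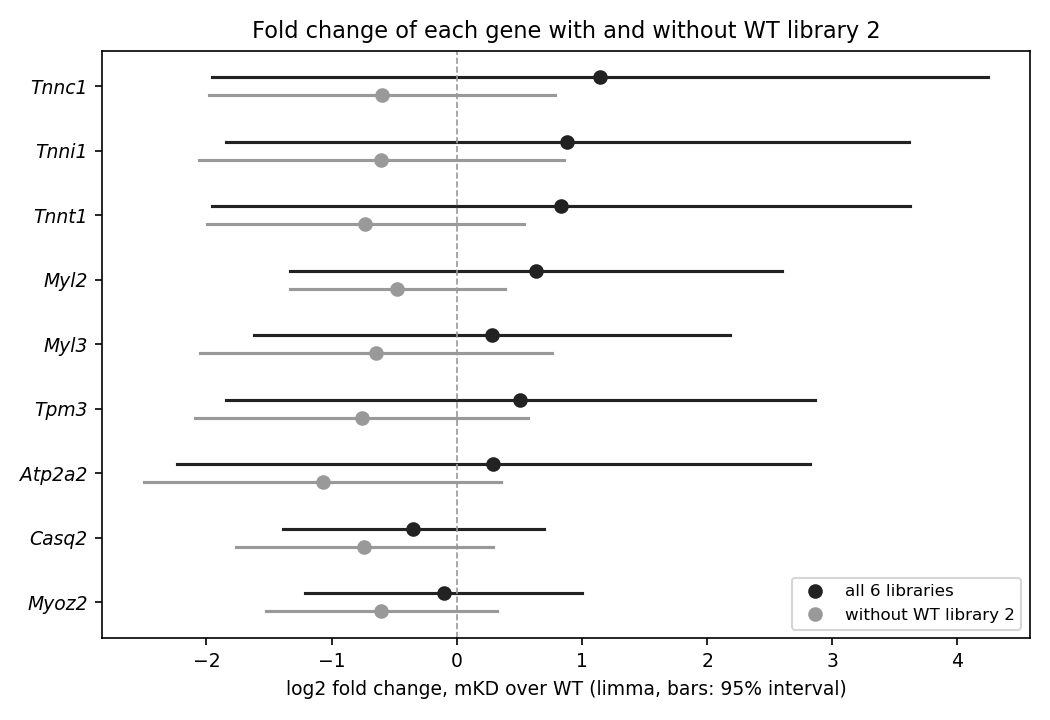
Log2 fold change, mKD over WT, of each slow-fibre gene from limma, with its 95% interval, over all 6 libraries (black) and without WT library 2 (grey). All intervals include 0. The 7 positive values, such as 1.14 for *Tnnc1*, lie below 0 once WT library 2 is left out.

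How the 9 genes covaried was measured as the correlation of log2 values over the 6 libraries, for all 36 pairs. Pearson's r was positive for 36 of 36 pairs, from 0.687 (*Tnnc1* with *Casq2*) to 0.998 (*Tnnc1* with *Tnnt1*), with a median of 0.964. Spearman's rho was 0.771 to 1.0. In two-sided exact permutation tests, with Benjamini-Hochberg adjustment over the 36 pairs, 33 pairs passed 0.05 for r (adjusted p 0.0074 to 0.067) and 32 for rho (adjusted p 0.0083 to 0.10), with raw p of 0.0028 to 0.067 and of 0.0028 to 0.10. As the genes were named as 1 group with earlier results known and share the same libraries, these p-values are not independent evidence that they form a group.

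*Tnnc1*, *Tnni1*, *Tnnt1*, *Myl2* and *Tpm3* were the most alike, with r of 0.987 to 0.998 over their 10 pairs. *Casq2* was the least like the others, with r of 0.687 to 0.913 over its 8 pairs, and the remaining 28 pairs had r of 0.853 to 0.998. WT library 2 did not carry the relation alone. Without it, r over 5 libraries was 0.853 to 0.998, and that of *Casq2* with the others was 0.853 to 0.951. Without the 2 libraries farthest from the median of the first gene of a pair, r over 4 libraries was 0.773 to 0.998. Taken as deviations from the mean of each genotype, r was at least 0.832, where the WT libraries spread more widely than the mKD libraries for 8 of the 9 genes. Within WT, library 3 was above library 1 and library 1 above library 2 for all 9 genes. Within mKD, library 2 was highest for all 9, whereas library 1 was above library 3 for *Tnnc1*, *Tnni1*, *Tnnt1* and *Tpm3* and below it for the other 5.

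**Figure D4:**
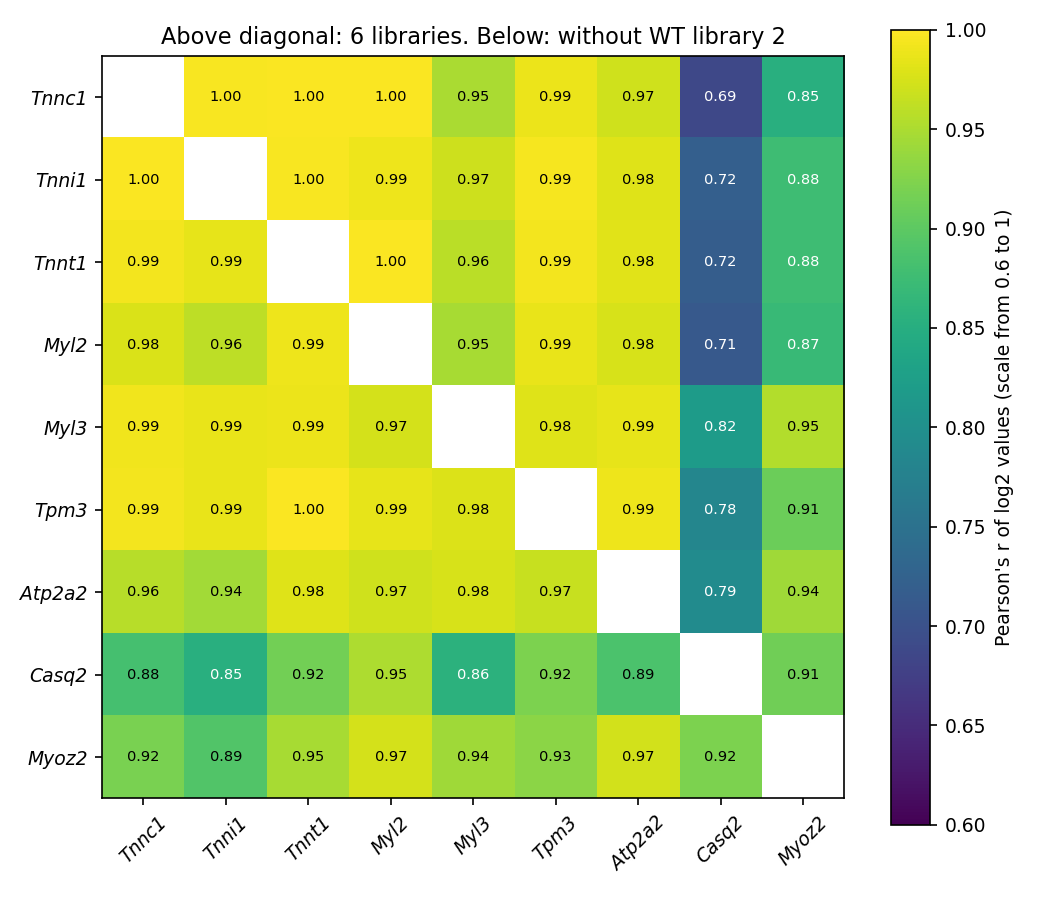
Pearson's r between the log2 values of each pair of slow-fibre genes, over 6 libraries above the diagonal and over 5 libraries without WT library 2 below it. The colour scale starts at 0.6. Pairs with *Casq2* are lowest above the diagonal, from 0.687 to 0.913, and 0.853 to 0.951 below it.

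Each gene was then set against the mean of the other 8. Pearson's r was 0.979 to 0.998 for 7 genes, 0.913 for *Myoz2* and 0.762 for *Casq2*, so 8 of 9 reached 0.9, whereas 0.715% of the other genes tested reached 0.9 with the mean of the 9. An r of -0.9 or lower was found for 0.422% of these genes. Mean centred log2 levels of the 9 genes summarise the libraries. They were 0.33, -2.53 and 1.51 in WT libraries 1 to 3 and -0.27, 1.13 and -0.18 in mKD libraries 1 to 3, so the largest gap lay between WT library 2 and the rest and both genotypes held values above and below 0.

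The 5 genes outside the group with the highest r with this mean over the 6 libraries, at a mean normalised count of at least 50, were *Vps51* (0.997), *Fhl2* (0.990), *Myh7* (0.988), *Dcakd* (0.986) and *Lgi1* (0.982). *Myh7*, the slow myosin heavy chain, had normalised counts of 32502, 661 and 74831 in WT and 15419, 47928 and 15066 in mKD. Its range of 113-fold exceeded that of each of the 9 genes, and limma gave a log2 difference of 0.93 between mKD and WT (SE 1.56, adjusted p = 0.79), or of -1.14 without WT library 2. *Fhl2*, a LIM domain protein abundant in heart, ranged 15.3-fold, from 9.03 in WT library 2 to 138 in mKD library 2. *Vps51*, a subunit of tethering complexes of the endosome and Golgi, had the same pattern at a range of 1.71-fold, and *Dcakd* at 1.82-fold.

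Of 15 genes listed as other slow-fibre genes, 14 had a positive r with the mean of the 9 genes. Their median r was 0.80, beside -0.013 over all genes tested outside the 9. Only 1 of the 15, *Myh7*, reached an r of 0.9. None of the 15 passed the 1.2-fold change at p under 0.05 in limma (0 at an adjusted p), beside 17.8% of all genes tested. The 1 with a negative r was *Myoz3* (-0.67), a relative of *Myoz2* that is not specific to slow fibres. The r of the fast counterpart *Myoz1* was -0.51. *Ankrd2*, a stretch-responsive ankyrin repeat protein of slow fibres, had normalised counts of 1877, 628 and 3434 in WT and 1110, 8551 and 1915 in mKD, with mKD library 2 highest. *Tpm2*, a further tropomyosin of slow fibres that fast fibres also contain, ranged by no more than 1.18-fold. Its values were 162580 to 191127, and its r with the 9 genes was 0.065. It was named after its values were seen.

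Markers that are largely cardiac were read beside these genes, because heart shares most of the slow isoforms. Of 13 such markers, *Nppa*, *Nppb*, *Myl7*, *Mybpc3* and *Nkx2-5* were at 0 in every library. The 5 markers that passed the filter all had a positive r with the mean of the slow-fibre genes, from 0.054 to 0.81 (median 0.51). *Myh6*, a cardiac myosin heavy chain, had the highest r. Its normalised counts were 198, 99.3 and 345 in WT and 94.2, 234 and 114 in mKD. Whether cardiac-type transcripts had a part in the pattern was not tested. The summed normalised count of the 13 was 1744 to 8515 in WT and 1502 to 3739 in mKD, and *Actc1*, an actin that skeletal muscle also expresses, made up most of it, with 7542 of 8515 in WT library 3.

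The fast counterparts of the 9 genes did not share their pattern. All 9 had a negative r with the mean of the slow-fibre genes, from -0.77 (*Myl1*) to -0.23 (*Tnnc2*). A negative r was not particular to them, as 10 general genes of skeletal muscle identity had r of -0.76 to -0.098. The ranges of the fast counterparts over libraries were 1.35-fold (*Myl1*) to 1.73-fold (*Myoz1*). *Tnnc2*, the fast troponin C, had normalised counts of 219168, 276643 and 211508 in WT and 357535, 331726 and 338135 in mKD, with no overlap between genotypes. In limma the log2 difference between mKD and WT was 0.55 (SE 0.18), at an unadjusted p of 0.015 and an adjusted p of 0.19. *Tnni2* (0.49, standard error 0.17) and *Myoz1* (0.41, standard error 0.17) also passed the 1.2-fold change at an unadjusted p under 0.05 in limma, so 3 of 9 fast counterparts rose by that measure and none fell, beside 8.31% of all genes tested that were higher. None passed at an adjusted p in limma. The count fell to 0 when the trend over transcript length was removed, without WT library 1, without a filter on low values, without mKD libraries 1 and 3, and with the replicate number as a block, and to 1 without WT library 3 or without mKD library 1.

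The ratio of each slow isoform to its fast counterpart, which does not depend on the scaling of libraries, was compared next. For *Tnnc1* to *Tnnc2* the WT libraries had log2 ratios of -5.72, -10.59 and -4.27 and the mKD libraries of -6.78, -5.19 and -6.81. In 8 of the 9 pairs the ratio was lowest in WT library 2, and in 8 of 9 highest in WT library 3, while *Casq2* to *Casq1* was lowest in mKD library 1 (-6.71) and highest in mKD library 2 (-4.42). The difference of means, mKD minus WT, was -0.52 (*Myoz2* to *Myoz1*) to 0.62 (*Tnnt1* to *Tnnt3*) with a median of 0.22 on the log2 scale. No difference exceeded the spread between mice (two-sided exact permutation test, p = 0.70 to 1.0, where 3 mice against 3 cannot go below 0.10, and adjusted p = 1.0 for each of the 9 pairs), and the genotypes overlapped in 9 of 9 pairs. Without WT library 2 all 9 differences were negative, with a median of -1.16.

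Expressed per kilobase as a share of the pair, *Tnnc1* made up 0.0626% of troponin C transcripts in WT library 2 and 4.79% in WT library 3. *Myl3* made up 1.19% to 16.4% of its pair with *Myl1*, and *Atp2a2* 0.0648% to 2.47% of its pair with *Atp2a1*, over the 6 libraries. This 16.4% was the highest share of any slow isoform in its pair, so in all 6 libraries the fast isoform was the more abundant of each pair.

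**Figure D5:**
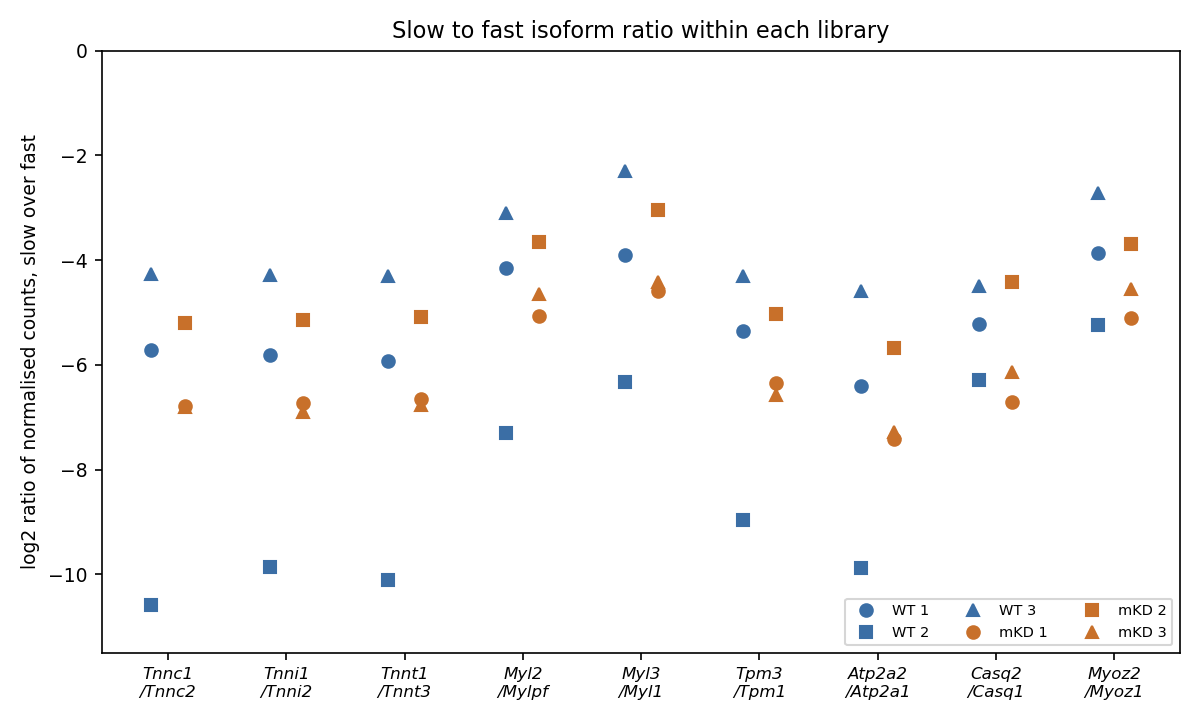
Log2 ratio of the normalised counts of each slow isoform to its fast counterpart within each library, WT in blue and mKD in orange, with symbols for replicate numbers. WT library 2 is lowest in 8 of 9 pairs, at -10.59 for *Tnnc1* to *Tnnc2*, and the genotypes overlap in all 9.

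Of 9 further genes of fast and glycolytic fibres, 1 was higher in mKD by 1.2-fold at p under 0.05 and none was lower (0 at an adjusted p, limma), beside 8.31% of all genes tested that were higher and 9.51% that were lower. This was *Pvalb*, parvalbumin, a calcium buffer of fast fibres, which differed by 0.66 on the log2 scale (SE 0.25, limma adjusted p = 0.23). *Pvalb* did not pass when library 1 or 3 of either genotype was left out, without mKD libraries 1 and 3 together, without a filter on low values, with the trend over transcript length removed and with the replicate block. The count was 0 to 2 over the alternatives, with 2 without WT library 2 and in DESeq2. *Myh2*, the myosin heavy chain of fast oxidative fibres, had normalised counts of 185179, 74711 and 195186 in WT, against 76625, 117309 and 98772 in mKD. Like the slow-fibre genes it was lowest in WT library 2 and highest in WT library 3. Its r with the mean of the slow-fibre genes was 0.74, whereas that of the fast myosins *Myh1* and *Myh4* was -0.59 and -0.73.

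Of 30 regulators of fibre type, 6 were lower in mKD by 1.2-fold at p under 0.05 and none was higher (0 at an adjusted p, limma), beside 9.51% of all genes tested that were lower. The 4 with the smallest p were *Nfatc3*, a transcription factor that calcineurin activates (log2 fold change -0.59, standard error 0.16), *Tead1* (-0.87, standard error 0.26) and *Tead4* (-0.81, standard error 0.28), which bind the MCAT motif, and *Six4* (-0.86, standard error 0.26), a homeodomain factor. *Sox6*, a repressor of slow-fibre genes, was also among the 6 (-0.30, standard error 0.12), but had a log2 fold change of 0.016 when the trend over transcript length was removed. The count of 6 was 4 with that trend removed, with the replicate block and without mKD libraries 1 and 3, and 4 to 8 with 1 library left out. The r of these 5 named regulators with the mean of the 9 slow-fibre genes was -0.63 for *Nfatc3* to 0.34 for *Tead1*. Among all 30 regulators, the lowest r was that of *Eya3* (-0.95), a transcriptional cofactor, at normalised counts of 423, 489 and 389 in WT and 444, 414 and 457 in mKD. The highest was that of *Prox1* (0.84), a homeodomain factor of slow fibres, at normalised counts of 52.3, 31.1 and 136 in WT and 32.9, 128 and 46.9 in mKD.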

How the data were processed

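GAS muscle of 3 WT and 3 mKD mice, which the study calls biological replicates, was analysed by RNA-seq. The deposited signal is a normalised count, for which the authors divided the read counts of each library by 1 size factor. The deposited log2 fold changes (WT over mKD), p-values, adjusted p-values, group means and 2 score columns (standard error and Wald statistic) hold the authors' own comparison and were not used. The methods name Partek Flow (9.0.20.0622) and DESeq2. GRCm38 (mm10) is the build in the submitters' processing notes. An aligner and a counting tool were not given in the sources used here.

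Division of each library by the value of 1 read gave whole reads for 100% of values (tolerance 1e-04). The totals set the precision of low values, and intervals cover counting error only. The test was limma 3.58.1 with a trend (R 4.3.3) on log2(value + 1), with genotype as the sole covariate. The 12322 genes kept by edgeR's filter on the recovered reads were tested, and p-values were adjusted over them by Benjamini-Hochberg. DESeq2 1.42.0 and edgeR 4.0.16 on those reads, TMM scaling, other filters (none, or a mean of at least 50), pseudocounts of 0.5 and 4, a lowess curve (span 0.3) over log2 transcript length, a block for the replicate number and the omission of each library in turn were alternatives. Leaving out mKD libraries 1 and 3 was added after seeing the data. The test was also run on simulated counts with the same setting of the spread for every gene. This does not show how it performs for genes that vary as widely as the slow-fibre genes. GENCODE M21 gave coordinates and transcript lengths and holds 99.7% of the gene identifiers, and promoter windows from RefSeq.

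The members and lists were chosen with earlier results of these data known. Genes named are the 9 members, *Tet3*, the 9 fast counterparts, *Myh7*, up to 4 of each other list with the smallest p, and the 5 genes most like the members. *Tpm2*, *Myh1*, *Myh4*, *Myh6*, *Actc1*, *Sox6*, *Eya3*, *Prox1* and the adipocyte markers were named after their values were seen. 1 regulator that enters the counts is not reported here by name.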

Additional observations from a re-analysis of the deposited data

How the results depend on the processing

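TMM scaling, pseudocounts of 0.5 and 4, no filter, a mean count of at least 50 and the removal of the trend over transcript length left the direction of all 9 slow-fibre genes as it was, and no alternative brought any of them past an adjusted p of 0.05. DESeq2 and edgeR turned the log2 fold change of *Tnni1* (-0.034 and -0.030), *Tnnt1* (-0.14 and -0.13), *Myl3* (-0.19 and -0.19), *Tpm3* (-0.15 and -0.14), *Atp2a2* (-0.58 and -0.58) and *Myh7* (-0.46 and -0.46). Without WT library 2 it was negative for all 9 genes and *Myh7*, and without mKD library 2 it was -0.19 for *Myl3*, -0.0091 for *Tpm3* and -0.17 for *Atp2a2*. *Myoz2* was positive without WT library 3 (0.35), without mKD library 1 (0.18) and without mKD libraries 1 and 3 (0.52), when *Casq2* was 0.57, *Atp2a1* -0.062 and *Casq1* -0.34. *Casq1* was also negative without WT library 3 (-0.06) and without mKD library 1 (-0.10). With the trend over transcript length removed, *Tnnt3* was -0.067, *Mylpf* -0.11, *Myl1* -0.16, *Casq1* -0.10 and *Sox6* 0.016. In DESeq2, *Tnnc2*, *Tnni2*, *Nfatc3* and *Tead1* passed an adjusted p of 0.05.

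With 1 library left out at a time, the log2 fold change ran from -0.60 to 2.37 for *Tnnc1*, -0.60 to 2.01 for *Tnni1*, -0.73 to 1.93 for *Tnnt1*, -0.47 to 1.37 for *Myl2*, -0.64 to 1.15 for *Myl3*, -0.76 to 1.45 for *Tpm3*, -1.07 to 1.39 for *Atp2a2*, -0.60 to 0.35 for *Myoz2*, -0.10 to 0.29 for *Casq1* and -1.14 to 2.27 for *Myh7*. That of *Casq2* ran from -0.80 to -0.048 and so kept its sign. The median of the 9 genes ran from -0.64 to 1.39, the median difference of the slow to fast ratios from -1.16 to 1.27, and the median r from 0.959 to 0.983. The number past 1.2-fold at p under 0.05 was then 0 to 3 of the fast counterparts, 0 to 1 of the other slow-fibre genes (1 without WT library 2), 0 to 2 of the fast and glycolytic genes and 4 to 8 of the regulators. Under no filter, the trend removed and the replicate block it was 0 for the fast counterparts and 0 for the fast and glycolytic genes. DESeq2 gave 2 for the latter, and leaving out mKD libraries 1 and 3 gave 0 fast counterparts and 4 other slow-fibre genes. The cause was not tested. Same-numbered WT and mKD libraries did not deviate together (r = 0.055, -0.051 and -0.076). With 3 libraries a genotype this cannot show whether the numbers pair the mice, and the sources used here do not state it. With the replicate block the slow-fibre genes kept their log2 fold changes, which a balanced block leaves unchanged, and 0 of 9 passed. With 3 mice a genotype and this spread, a difference of several-fold in a slow troponin gene could not be detected.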
